A study of Mus musculus with 76 samples.

Results

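The 9 genes Slc1a3, Slc1a2, Glul, Aqp4, Gja1, Gfap, Aldoc, Apoe and Agt are widely used as astrocyte transcripts, and their counts in single patched hypothalamic neurons are described here. The members were chosen by their use as astrocyte markers, with earlier results of the same counts in view, so their levels are given as description and were not tested. They make up 9 of the 56980 genes in the deposited count table and took 0.125% of all counts (41107 of 32910186). All 9 have an Ensembl ID in the table and a count in at least 1 cell of each group.

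The study follows neurons of the arcuate nucleus that once switched on Pomc, the gene for the precursor of satiety peptides, and asks what becomes of their Pomc expression on different diets. Male mice carried a tamoxifen-dependent Cre recombinase driven by Pomc promoter elements (Pomc-CreERT2) with a Cre-dependent tdTomato reporter, and a Pomc-eGFP transgene that reports present Pomc promoter activity. The genotype is given in the results of the study as Pomc-CreERT2;tdTomato;Pomc-eGFP and in its methods as Pomc-CreERT2;tdTomato. Mice received tamoxifen when 12 weeks old and were then kept on chow diet (CD) or high-fat diet (HFD) for 6 months, with 5 mice per diet over 3 independent experiments.

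Cells were recorded in brain slices by patch clamp and their content was then drawn into the pipette. Each cell's RNA was copied and amplified (SMART-Seq Single Cell kit) and made into a Nextera XT library, which keeps neither strand nor molecule identifiers. Cells with tdTomato and eGFP are called Pomc+, and cells with tdTomato alone are called Ghost. The CD cells were 23 Pomc+ and 15 Ghost, and the HFD cells were 19 of each label. The labels name no mouse and no experiment, so each group counts as 1 sample, there are no replicates, and differences between groups cannot be set against the spread between mice.

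Astrocytes take up glutamate and potassium around synapses, wrap vessels with end-feet, and share metabolites through gap junctions. Their fine processes lie against neuron cell bodies, where a patch pipette has to pass. None of the 9 genes is exclusive to astrocytes: Apoe is also made by microglia, Glul by oligodendrocytes, and several by tanycytes, the glia that line the third ventricle beside the arcuate nucleus.

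The total count per cell ran from 4057 to 1452605 with a median of 322652 over all cells. By group the median was 339691 (Pomc+) and 123528 (Ghost) on CD and 393797 and 333785 on HFD. Shares of cells at full depth therefore compare groups of unlike depth, most of all on CD. Levels are given as CPM, a cell's count of a gene over its total count times 1000000, and a group's level is the mean over its cells unless another measure is named. A cell is said to hold a gene when it has at least 1 count of it. Shares of cells carry exact (Clopper-Pearson) 95% intervals, and summed counts carry exact Poisson 95% intervals. Both cover counting error only, since reads without molecule identifiers are not independent molecules and the spread between mice is not known. A count of 0 allows up to 3 counts, which is 9.30 CPM at the median depth over all cells.

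Every cell held counts of neuron markers, and most held several. Of 10 neuron markers, the cells held between 1 and 10 with a median of 8, and 73 of 76 cells held at least 3. Snap25 was counted in 67 cells at a mean of 664 CPM and Pomc in 73 cells at 6544 CPM. The 3 cells with fewer than 3 neuron markers were cells 706 (Pomc+ on CD), 712 (Ghost on CD) and 650 (Pomc+ on HFD), and cell 650 held 6 of the 9 members at a summed 6487 CPM.

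Per kilobase of exon, the members spanned more than 2 orders of magnitude. Over all 76 cells the mean was 267 CPM per kb for Apoe, 149 for Aldoc, 22.7 for Glul, 13.9 for Gfap, 11.9 for Agt, 5.81 for Slc1a2, 5.41 for Slc1a3, 1.86 for Gja1 and 1.22 for Aqp4. Apoe and Aldoc stood apart: their lowest group means were 69.8 and 58.8 CPM per kb, above the highest group mean of any other member (48.7, Glul). Below them the ranges of neighbouring members over the 4 groups overlapped, so their order was not settled. Aqp4 and Gja1 had the lowest means over all cells and in 3 of the 4 groups, while in Ghost on HFD Aqp4 (1.71) lay above Slc1a2 (1.60) and Slc1a3 (0.740).

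**Figure D1:**
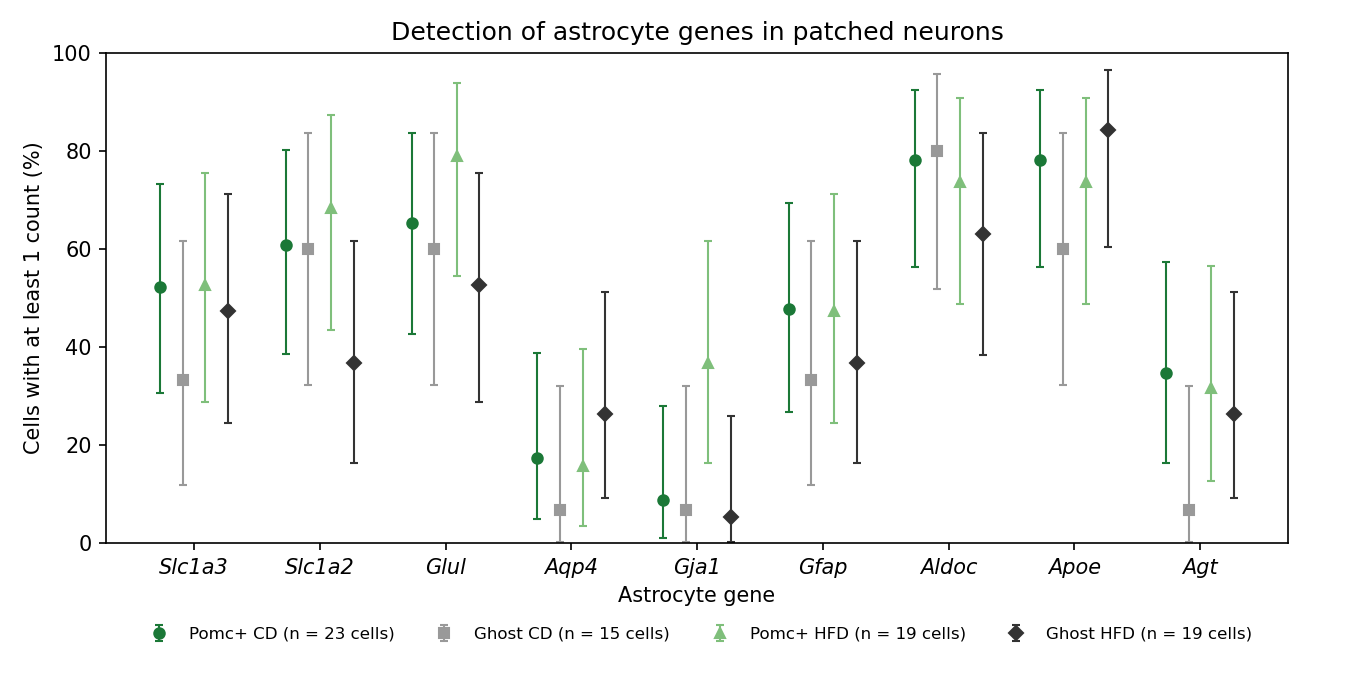
Share of cells with at least 1 count of each astrocyte gene (percent, exact 95% intervals) in the 4 groups of eGFP label and diet. Apoe and Aldoc were counted in most cells of every group, Aqp4 and Gja1 in few, and within each gene the intervals of the groups overlap.

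Glutamate released at synapses is cleared mainly by astrocytes. Slc1a3 encodes the transporter GLAST and Slc1a2 the transporter GLT-1, and Glul encodes glutamine synthetase, which turns the glutamate into glutamine for return to neurons. Slc1a2 RNA is also found in some neurons. Slc1a3 (ENSMUSG00000005360, minus strand of chr15:8634124-8710764, GRCm38) and Slc1a2 (ENSMUSG00000005089, plus strand of chr2:102658659-102790784) have long transcripts. Glul (ENSMUSG00000026473) lies on the plus strand of chr1:153899944-153909723.

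Glul was the most widely held of these 3 genes. It was counted in 49 of 76 cells (64.5%, interval 52.7% to 75.1%), Slc1a2 in 43 (56.6%, 44.7% to 67.9%) and Slc1a3 in 36 (47.4%, 35.8% to 59.2%). At least 10 counts were found in 29 of the 49 cells with Glul, 25 of the 43 with Slc1a2 and 18 of the 36 with Slc1a3. With each cell thinned at random to 40000 counts, which 68 cells reached, Glul was held by 31, Slc1a2 by 22 and Slc1a3 by 18 cells.

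Slc1a3 was held by 12 of 23 Pomc+ and 5 of 15 Ghost cells on CD, and on HFD by 10 of 19 and 9 of 19 cells in the same order. Its mean was 68.1 and 17.2 CPM on CD and 82.2 and 6.32 CPM on HFD, in the same order. The highest cells reached 729 CPM in Pomc+ on CD, 82.3 in Ghost on CD, 407 in Pomc+ on HFD and 53 in Ghost on HFD, and the lowest cell of each group had none. The middle Ghost cell had no Slc1a3 on either diet, against medians of 1.38 CPM (CD) and 7.40 CPM (HFD) in Pomc+. Pomc+ cell 704 alone held 46.6% of the summed Slc1a3 CPM of Pomc+ on CD.

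Slc1a2 was held by 14 of 23 Pomc+ and 9 of 15 Ghost cells on CD, at means of 68.7 and 118 CPM. On HFD 13 of 19 Pomc+ and 7 of 19 Ghost cells held it, at 108 and 21 CPM. The Ghost mean on CD rested on cell 664 at 658 CPM and on cell 711, a shallow library in which 27 of 27715 counts made 974 CPM. The medians (5.25 CPM in Pomc+ and 1.47 in Ghost on CD, 55.9 and 0 on HFD) placed Pomc+ above Ghost on both diets. The other highest cells had 416 CPM (Pomc+ on CD), 784 (Pomc+ on HFD) and 194 (Ghost on HFD).

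Glul was held by 15 of 23 Pomc+ and 9 of 15 Ghost cells on CD and by 15 of 19 and 10 of 19 cells on HFD. Its mean was 49 and 64.5 CPM on CD and 162 and 29.8 CPM on HFD, and its median was 15.8, 10.3, 37.2 and 5.39 CPM in the same order. Every group thus held Glul in its middle cell, which was not so for Slc1a3 or Slc1a2. The highest cells had 229, 370, 1050 and 300 CPM in that order. In Ghost on HFD, cell 643 gave 66.7% of the group's Glul counts.

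Aqp4 encodes the water channel of astrocyte end-feet, and Gja1 encodes connexin 43, the main gap-junction protein of astrocytes. Both are scarce in neurons, and in the hypothalamus Gja1 is also made by tanycytes and both by ependymal cells. Aqp4 has the ID ENSMUSG00000024411, and Gja1 (ENSMUSG00000050953) lies on the plus strand of chr10:56377330-56402513. Their counts came from the fewest cells of the 9 members.

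Aqp4 was counted in 13 of 76 cells (17.1%, interval 9.43% to 27.5%), which on CD were 4 of 23 Pomc+ and 1 of 15 Ghost cells, and on HFD 3 of 19 and 5 of 19 in the same order. In 9 of these 13 cells there were fewer than 10 counts, and thinned to equal depth 5 of 68 cells held Aqp4. Single cells carried its level. Cell 654 (Pomc+ on HFD) had 118 of the 213 Aqp4 counts, and cell 632 had 46 of the 50 counts of Pomc+ on CD. The group means were 3.44 CPM (Pomc+) and 1.33 CPM (Ghost) on CD and 14.4 and 10.7 CPM on HFD, all medians were 0, and the highest cells had 70.4, 19.9, 241 and 155 CPM in that order. The last of these, cell 657, had 2 Aqp4 counts among 12900.

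Gja1 was counted in 11 of 76 cells (14.5%, 7.45% to 24.4%). It was held by 2 of 23 Pomc+ and 1 of 15 Ghost cells on CD, and on HFD by 7 of 19 and 1 of 19 cells in the same order. Pomc+ on HFD was the group with the largest share, at 36.8% (16.3% to 61.6%) against 5.26% (0.133% to 26%) in Ghost on HFD, and these intervals overlap. The summed counts were 8 (3.45 to 15.8), 7 (2.81 to 14.4), 596 (549 to 646) and 88 (70.6 to 108) in that order of groups. Of the 596 counts, 403 came from cell 651, and all 88 came from cell 643. The means were 1.28, 0.474, 70.5 and 3.89 CPM, the medians 0, and the highest cells had 26.3, 7.10, 704 and 74 CPM.

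Gfap encodes the intermediate filament of the astrocyte cytoskeleton and is made strongly by reactive and fibrous astrocytes. Gfap (ENSMUSG00000020932, minus strand of chr11:102887336-102900912) was counted in 32 of 76 cells (42.1%, 30.9% to 54%). It was held by 11 of 23 Pomc+ and 5 of 15 Ghost cells on CD, and by 9 of 19 and 7 of 19 cells on HFD. The means were 75.7 and 59.8 CPM on CD and 67.9 and 26.9 CPM on HFD, the medians were 0 throughout, and the highest cells had 1040, 644, 558 and 324 CPM in that order. Gfap was therefore absent from the middle cell of every group and present at high CPM in a few cells of each. At equal depth 22 of 68 cells held it.

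Aldoc encodes aldolase C, the glycolytic enzyme typical of astrocytes, and is also found at lower levels in some neurons. Aldoc (ENSMUSG00000017390, plus strand of chr11:78322968-78327781) was counted in 56 of 76 cells (73.7%, 62.3% to 83.1%), and in 49 of 68 cells at equal depth. Over all cells the share was thus similar at equal depth, while in Ghost on CD it was 12 of 15 cells in full and 7 of 12 thinned. It was held by 18 of 23 Pomc+ and 12 of 15 Ghost cells on CD and by 14 of 19 and 12 of 19 cells on HFD. The means were 643 and 292 CPM on CD and 742 and 192 CPM on HFD, with medians of 260, 176, 368 and 84.3 CPM in that order. The Pomc+ means and medians were above those of Ghost on each diet, while highest cells of 3546, 1432, 2984 and 1205 CPM and lowest cells of 0 show that the groups overlapped.

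Apoe encodes the main lipid carrier secreted by astrocytes and is also made by activated microglia. Agt encodes angiotensinogen, which astrocytes of the hypothalamus secrete. Apoe (ENSMUSG00000002985, minus strand of chr7:19696109-19699188) was counted in 57 of 76 cells (75%, 63.7% to 84.2%), and Agt (ENSMUSG00000031980, minus strand of chr8:124556534-124569706) in 20 (26.3%, 16.9% to 37.7%). At equal depth 49 and 11 of 68 cells held them. The pair of secreted products thus included the most and one of the least often counted members.

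Apoe was held by 18 of 23 Pomc+ and 9 of 15 Ghost cells on CD, and on HFD by 14 of 19 and 16 of 19 cells in the same order. The means were 638 and 149 CPM on CD and 756 and 637 CPM on HFD, and the medians were 85.9, 58.5, 436 and 244 CPM in that order. Apoe was the member whose Ghost level differed most between diets in absolute CPM. Its highest cells had 6619, 573, 3375 and 3256 CPM, and cell 704 held 45.1% of the summed Apoe CPM of Pomc+ on CD. Agt was held by 8 of 23 and 1 of 15 cells on CD and by 6 of 19 and 5 of 19 cells on HFD, at means of 37.3, 3.86, 25 and 16.7 CPM and medians of 0. Its highest cells had 491, 57.8, 344 and 203 CPM, and cell 635 had all 45 Agt counts of Ghost on CD.

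**Figure D2:**
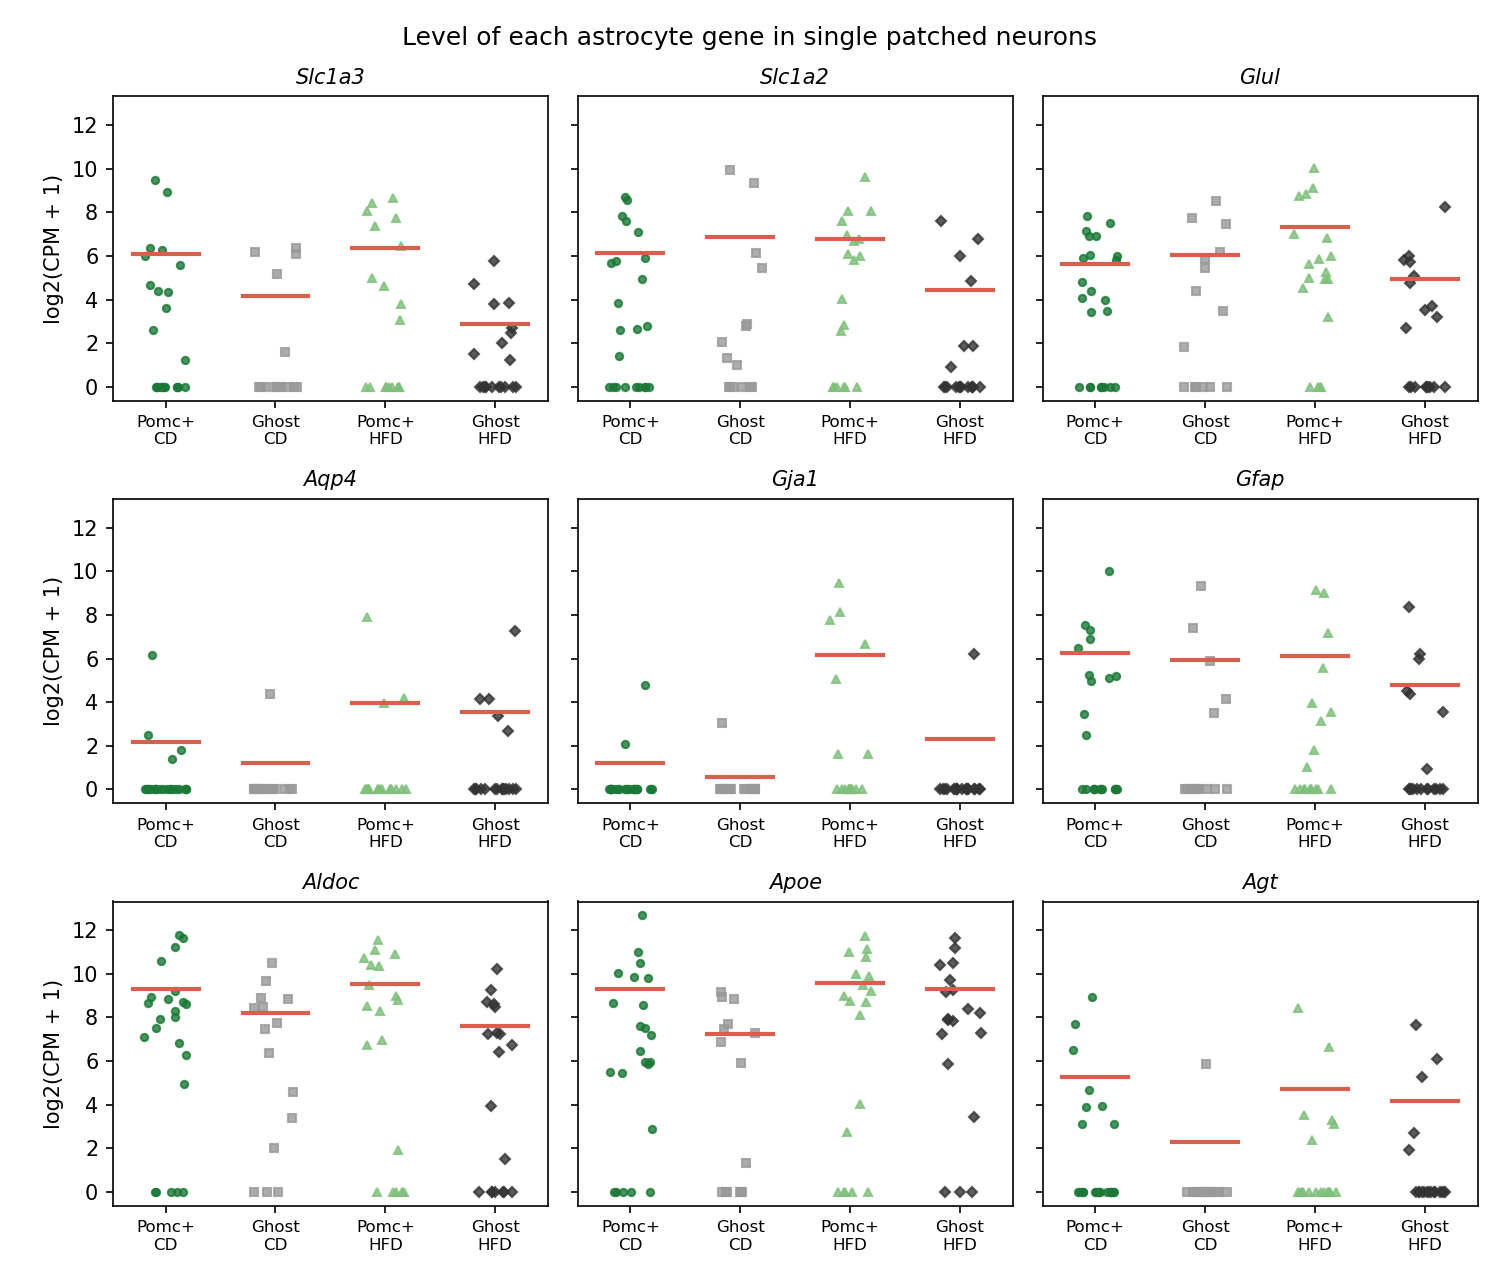
Level of each astrocyte gene in each cell, as log2(CPM + 1), in the 4 groups of eGFP label and diet; each point is 1 cell and the red bar is the group's mean CPM on the same scale. Within every group cells without a count lie beside cells with high levels.

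Summed over the 9 members, a cell had between 0 and 11059 CPM. The mean was 1585 CPM in Pomc+ and 706 in Ghost on CD, and 2029 and 944 on HFD. The medians were 594, 503, 1334 and 584 CPM in that order, and the highest cells were 704 (11059 CPM), 664 (2480), 718 (7364) and 643 (4252). The 10 highest of the 76 cells held 51.5% of all summed member CPM, so the group means describe a minority of cells. Apoe and Aldoc together gave 80.8%, 62.5%, 73.9% and 87.8% of the summed CPM in the same order of groups.

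The eGFP label is meant to mark present Pomc promoter activity, and the labels were compared within each diet. Pomc RNA itself was counted in 22 of 23 Pomc+ cells (mean 11652 CPM) and 14 of 15 Ghost cells (6296 CPM) on CD, and in 19 of 19 (3414 CPM) and 18 of 19 (3686 CPM) on HFD, so Ghost cells were not without it. A gene entered a comparison if it had at least 5 counts in at least 3 cells, which 12265 genes and all 9 members did, and it was called higher or lower at a 2-fold ratio of group means. On CD, 0 members were 2-fold higher in Ghost than in Pomc+, where 23.9% of the 10638 genes with a ratio were, and 6 were 2-fold lower, where 26.9% were. The median log2 ratio of the members was -1.38 against -0.06 over all genes, and -1.03 against -0.55 with pooled counts. This difference was not tested, and 3 of the 6 lower calls were lost when single cells were left out.

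The 6 lower members on CD were Agt (ratio 0.104), Apoe (0.234), Slc1a3 (0.253), Gja1 (0.369), Aqp4 (0.385) and Aldoc (0.454). Single cells carried several of them. Without cell 632 the Aqp4 ratio was 3.34, and without cell 660 the Gja1 ratio was 3.19, so neither held. Without cell 704 the ratio was 0.453 for Slc1a3 and 0.408 for Apoe, without cell 689 it was 0.232 for Agt, and without cell 701 it was 0.571 for Aldoc. With each of the 38 cells left out in turn, 3 of the 6 kept a 2-fold difference (Slc1a3, Agt and Apoe). Agt had no ratio without cell 635, its only Ghost cell on CD. The ratio was 1.71 for Slc1a2 (0.821 without cell 711, and 2.22, past the 2-fold limit, without cell 686), 1.32 for Glul (0.871 without cell 664) and 0.790 for Gfap (0.239 without cell 664 and 1.88 without cell 700). The direction for Slc1a2 and Glul depended on the measure, since with pooled counts both were 2-fold lower in Ghost (log2 ratios of -1.03 and -1.04). Pooled counts placed Gja1 (1.49 against 0.778 CPM), Aldoc (441 against 409 CPM) and Gfap (50.3 against 39.1 CPM) higher in Ghost than in Pomc+.

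On HFD 0 members were 2-fold higher in Ghost, where 20.2% of the 11098 genes with a ratio were, and 6 were 2-fold lower, where 31.6% were. The median log2 ratio was -1.95 for the members and -0.23 for all genes. The lower members were Gja1 (0.0552), Slc1a3 (0.0769), Glul (0.184), Slc1a2 (0.194), Aldoc (0.258) and Gfap (0.397), so that all 3 genes of glutamate uptake and conversion were lower. Without cell 650 the ratio was 0.297 for Slc1a2, 0.265 for Glul and 0.663 for Gfap, and without cell 639 it was 0.110 for Gja1. In the other direction it was 0.0454 for Slc1a3 and 0.0911 for Glul without cell 643, 0.106 for Slc1a2 without cell 653 and 0.153 for Gfap without cell 646. All but Gfap kept the 2-fold difference with each cell left out in turn, although Gja1 had no ratio without cell 643.

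Apoe, Aqp4 and Agt did not differ 2-fold between labels on HFD. The ratio was 0.842 for Apoe, 0.742 for Aqp4 (6 without cell 654 and 0.185 without cell 657) and 0.667 for Agt (2.30 without cell 650 and 0.252 without cell 643). The 3 members lower in Ghost on both diets were Slc1a3, Gja1 and Aldoc, and of these only Slc1a3 kept a 2-fold difference on CD with each cell left out (Gja1 was 3.19 without cell 660 and Aldoc 0.571 without cell 701). With pooled counts Gja1 (1.49 against 0.778 CPM) and Aldoc (441 against 409 CPM) were higher in Ghost than in Pomc+ on CD. The calls of the other members differed between diets by mean CPM, and pooling the counts undid several of these differences. Slc1a2 and Glul were then also 2-fold lower on CD, Apoe was not (log2 ratio -0.79), and Aqp4 was also lower on HFD (-2.31).

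The summed member level gave a Ghost to Pomc+ ratio of 0.445 on CD and 0.465 on HFD. Leaving out 1 cell at a time kept it between 0.365 and 0.612 on CD and between 0.375 and 0.545 on HFD. Other measures moved it further, since on CD the log2 ratio was -1.17 by mean CPM and -0.32 when counts were pooled, short of 2-fold, and on HFD it was -1.10 by mean CPM and -0.52 with deposited normalized counts. Runs of consecutive cell numbers of the same diet, which may follow the order of work, did not all agree. Of 6 runs with at least 3 cells of each label (67 cells), 4 had the lower summed level in Ghost. On CD the ratio was 1.77 in cells 630 to 636, 1.56 in cells 658 to 669, 0.186 in cells 684 to 692 and 0.166 in cells 699 to 712, and on HFD it was 0.757 in cells 637 to 657 and 0.125 in cells 713 to 720. Single cells carried the ratios of some runs. Without cell 636 the ratio in cells 630 to 636 was 0.736 (3.05 without cell 630), and without cell 664 that in cells 658 to 669 was 0.943. In cells 637 to 657 it was 1.11 without cell 650. In cells 699 to 712 it was 0.350 without cell 704 and 0.0132 without cell 711, and in cells 713 to 720 it was 0.187 without cell 713 and 0.0671 without cell 715. The lower Ghost level was thus kept with each cell left out in the last 2 CD runs and the last HFD run, and the direction in the earlier runs rested on single cells.

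The intervals of the shares of cells overlapped between Ghost and Pomc+ for all 9 members within each diet, which with 1 sample per group is a description and not a test. At equal depth and over both diets, Slc1a2 was held by 18 of 39 Pomc+ cells (46.2%, 30.1% to 62.8%) and 4 of 29 Ghost cells (13.8%, 3.89% to 31.7%). Slc1a3 was held by 14 of 39 (35.9%, 21.2% to 52.8%) and 4 of 29 (13.8%, 3.89% to 31.7%) cells in the same way. Over both diets the transporters had the widest gaps between labels among the 9 members, and the intervals still overlapped. On HFD alone the Slc1a2 gap was wider, at 10 of 18 Pomc+ cells (55.6%) and 2 of 17 Ghost cells (11.8%). On CD it was 8 of 21 and 2 of 12 cells. The intervals overlapped within each diet too.

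High-fat diet is known to alter arcuate glia in mice, so the diets were compared within each label. No run of cell numbers held both diets, so the diets could not be compared within a run. In Pomc+ cells 3 members were 2-fold higher on HFD than on CD, where 27.2% of the 11369 genes with a ratio were, and 0 were 2-fold lower, where 20.5% were. The median log2 ratio was 0.27 for the members and 0.12 for all genes. By mean CPM the count of members was near the background in this direction, so that count is not a result about the members. The gap between the medians depended on the scaling. With pooled counts the median log2 ratio was 1.17 for the members and -0.27 for all genes. Without the genes counted in every cell it was -0.11 for the members and 0.06 for all genes. These differences were not tested.

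The higher members in Pomc+ were Gja1 (ratio 54.9), Aqp4 (4.18) and Glul (3.30). Gja1 rested on 2 cells with 8 counts on CD and 7 cells with 596 counts on HFD, and its ratio was 27.5 without cell 639 and 475 without cell 660. Aqp4 was higher through cell 654, without which the ratio was 0.517, and it was 36.3 without cell 632. Glul kept at least 2.29 with any cell left out. The other 6 ratios lay between 0.670 (Agt) and 1.58 (Slc1a2). Of these, Agt was 0.195 without cell 650 and 1.5 without cell 689, Slc1a3 was 2.16 and Apoe 2.07 without cell 704, Gfap was 2.13 without cell 700 and 0.537 without cell 650, and Slc1a2 was 1.03 without cell 650 and 2.05 without cell 686. The summed level had a ratio of 1.28 by mean CPM and a larger one with pooled counts. Beside the members, the mean level of 11 oligodendrocyte genes in Pomc+ cells was 270 CPM on CD and 738 CPM on HFD. On HFD it included 5758 CPM in cell 651. The mean level of 13 microglia genes was 369 CPM on CD and 2132 CPM on HFD.

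In Ghost cells the members split by diet. There 4 were 2-fold higher on HFD, where 26% of the 10413 genes with a ratio were, and 4 were 2-fold lower, where 27.6% were. The median log2 ratio was -0.60 for the members and -0.07 for all genes. The higher members were Gja1 (8.22), Aqp4 (8.06), Agt (4.32) and Apoe (4.27), and the lower were Slc1a2 (0.179), Slc1a3 (0.367), Gfap (0.451) and Glul (0.461). The split depended on the scaling, since 0 members were 2-fold lower when counts were pooled and 1 was with deposited normalized counts. Pooled, the members' median log2 ratio was 0.71 against 0.23 over all genes.

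Of these 8 ratios, 4 kept their 2-fold difference wherever a ratio could be formed with each of the 34 cells left out in turn (Aqp4, Slc1a2, Gja1 and Apoe). Gja1 had no ratio without cell 636 and none without cell 643, which held all its Ghost counts on CD and on HFD, so its difference rested on 1 cell of each diet. Aqp4 had no ratio without its only Ghost cell on CD, and without cell 657 its ratio was 2.01. With pooled counts its log2 ratio was 0.46, short of 2-fold. Apoe was counted in 9 of 15 Ghost cells on CD and 16 of 19 on HFD, and its ratio was 3.29 without cell 657. The mean level of 13 microglia genes in Ghost cells was 244 CPM on CD and 2157 CPM on HFD beside it. Agt was 1.63 without cell 643. Slc1a2 was 0.373 without cell 711 and 0.0974 without cell 653, Slc1a3 was 0.217 without cell 643 and 0.502, short of 2-fold, without cell 635, Gfap was 1.49 without cell 664 and 0.174 without cell 646, and Glul was 0.697 without cell 664 and 0.228 without cell 643. The ratio was 0.657 for Aldoc, and 1.34 for the summed level. The log2 ratio of the summed level was 0.42 with Apoe and -0.86 without it, so its direction depended on Apoe.

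Joint counting describes whether members of different roles came together in single cells. Deeper libraries show more genes of every kind, so joint counting also depends on depth. A cell held between 0 and 8 of the 9 members with a median of 4, and by group the median was 5 (Pomc+) and 3 (Ghost) on CD and 5 and 4 on HFD. No cell held all 9. The 6 cells with 8 members were 643, 647, 663, 667, 704 and 719, and the 6 with none were 672, 693, 699, 706, 712 and 713. At equal depth the median number of members was 3 in both CD groups, and 4 (Pomc+) and 2 (Ghost) on HFD.

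At least 3 members were held by 57 of 76 cells (75%, 63.7% to 84.2%). By group these were 19 of 23 Pomc+ cells (82.6%, 61.2% to 95%) and 11 of 15 Ghost cells (73.3%, 44.9% to 92.2%) on CD, and 15 of 19 (78.9%, 54.4% to 93.9%) and 12 of 19 (63.2%, 38.4% to 83.7%) on HFD. With all counts most cells of each group thus held several members, and the intervals overlapped. This was not so for every group at equal depth, where 12 of 21, 7 of 12, 15 of 18 and 8 of 17 cells held at least 3 in the same order, and the share with at least 10 counts of 3 members was 33.3% in Ghost on CD and 31.6% in Ghost on HFD. The number of members followed depth across the 76 cells, each with its own library and depth, with a Spearman correlation of 0.52 with the total count and 0.56 with the number of genes counted. The summed member CPM did not (0.04 with the total count), and its correlation with the percent of mitochondrial counts was 0.36 over all cells, 0.42 (Pomc+) and 0.33 (Ghost) on CD and 0.46 and 0.20 on HFD.

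**Figure D3:**
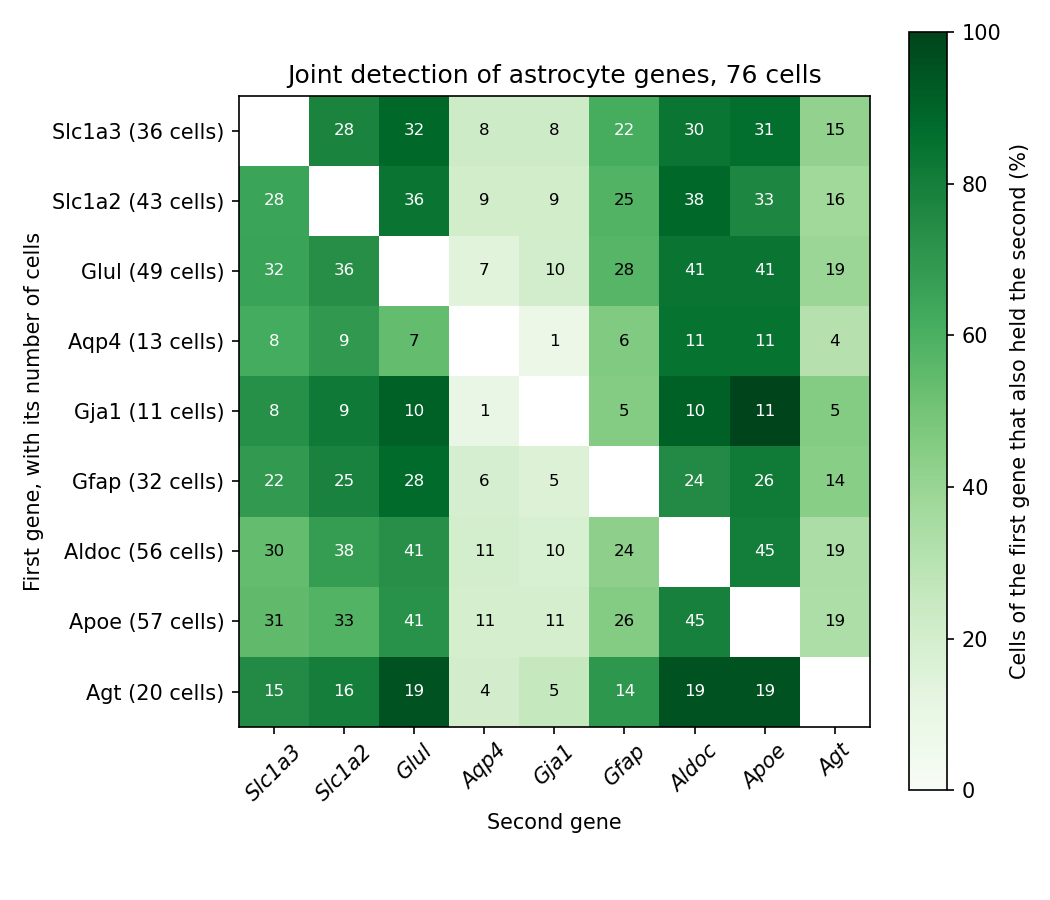
Joint counting of the 9 astrocyte genes in 76 cells; each number is the count of cells with both genes, and the colour is the percent of the row gene's cells that also hold the column gene. Apoe and Aldoc were present in most cells with any other member, and Aqp4 and Gja1 met in 1 cell.

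In 34 of 36 pairs a member was counted in a larger share of the cells with the other member than of the cells without it, and at equal depth in 30 of 36. Glul was held by 32 of the 36 cells with Slc1a3 (88.9%) and 17 of the 40 without it (42.5%), and by 36 of 43 cells with Slc1a2 and 13 of 33 without it. The excess with Slc1a2 was kept at equal depth (17 of 22 cells against 14 of 46), and that with Slc1a3 was small there (9 of 18 against 22 of 50). All 3 genes of glutamate uptake and conversion were held by 26 cells. Glul was also held by 28 of 32 cells with Gfap and 21 of 44 without it.

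With all counts both exceptions were pairs of Aqp4, and at equal depth 5 of the 6 were, the other being Gfap with Apoe (15 of 22 cells with Gfap held Apoe, and 34 of 46 without it). Aqp4 and Gja1 met only in cell 654, where independence would give 1.88 cells, and Glul was held by 7 of 13 cells with Aqp4 and 42 of 63 without it. All 11 cells with Gja1 held Apoe, as did 46 of the 65 others. Glul, Aldoc and Apoe were each held by 19 of the 20 cells with Agt. Aldoc and Apoe, the most abundant members, met in 45 of 56 Aldoc cells, and 12 of the 20 others held Apoe. Aldoc was held by 24 of 32 cells with Gfap and 32 of 44 without it, and at equal depth by 18 of 22 and 31 of 46.

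The levels of the members were weakly related. The Spearman correlation of CPM over 76 cells ran from -0.16 to 0.49 in the 36 pairs with a median of 0.26, and 33 were above 0. The highest was that of Slc1a2 with Glul (0.49). Against the sum of the other 8 members, Apoe and Glul had 0.45 and Aqp4 had 0.08.

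Transcripts of other cells were read beside the members. A list of 40 other astrocyte genes correlated with the summed member CPM at 0.64 over 76 cells, and within groups at 0.59 (Pomc+) and 0.56 (Ghost) on CD and 0.85 and 0.40 on HFD. Without Apoe in the sum it was 0.52 over all cells, and 0.54, 0.66, 0.84 and -0.06 in the same order of groups, so in Ghost on HFD it depended on Apoe. In that list Cst3 was held by 75 cells, at a mean of 1491 CPM where the whole list had 3130 CPM. The summed level of the list thus rested largely on Cst3. Mt3 was held by 69 cells, Mt1 by 59, and Clu and Sparcl1 by 51 each, while 10 genes of the list were counted in fewer than 5 cells. In Ghost against Pomc+ it had 2 genes 2-fold higher and 11 lower of 27 with a ratio on CD, where 23.9% and 26.9% of all genes were, and 2 higher and 16 lower of 31 on HFD, where 20.2% and 31.6% were. Its median log2 ratio was -0.82 on CD and -1.20 on HFD, on the same side as that of the members, which was not tested. By diet it had 11 higher and 2 lower of 30 in Pomc+, against 27.2% and 20.5% of all genes, and 12 higher and 6 lower of 29 in Ghost, against 26% and 27.6%. In Ghost its median log2 ratio between diets was 0.54 and that of the members -0.60, on opposite sides by mean CPM. The side of the members was not stable, since their median was 0.58 without cell 664. It was 0.71 with pooled counts and -0.017 with deposited normalized counts.

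Microglia genes were related to part of the members. The correlation of 13 microglia genes with the summed member CPM was 0.48 over all cells, 0.26 without Apoe, and 0.55 with Apoe alone. Within groups it was 0.64 (Pomc+) and -0.01 (Ghost) on CD and 0.91 and 0.09 on HFD. Without Apoe it was 0.59, -0.06, 0.86 and -0.39 in the same order, so in Pomc+ cells the relation did not depend on Apoe. Their mean level was 369 and 244 CPM on CD and 2132 and 2157 CPM on HFD in the same order. The 4 cells with the highest summed members (704, 718, 650 and 719) held 10, 13, 12 and 9 of the 13 microglia genes, and the next 4 (686, 673, 643 and 701) held 3, 2, 4 and 3. Ghost cell 657 on HFD, with Apoe at 3256 CPM and 2 members in all, held 6 of them. Apoe counts from astrocytes and from microglia cannot be told apart in these libraries.

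The remaining lists followed the members less over all cells, and unevenly by group. The correlation with the summed member CPM was 0.15 for 11 oligodendrocyte genes, 0.20 for 7 genes of their precursors, 0.18 for 11 vascular genes, 0.27 for 13 tanycyte and ependymal genes, 0.09 for 10 neuron genes and 0.08 for 5 genes of Pomc neurons. Within Pomc+ on HFD it was 0.69 for oligodendrocyte genes and 0.64 for their precursors, and 0.63 and 0.61 without Apoe. Within Ghost on HFD it was -0.48 for oligodendrocyte and 0.51 for vascular genes. Without Apoe these values were -0.09 and -0.16, so in Ghost on HFD both depended on Apoe. Mbp, an oligodendrocyte gene, was held by 42 cells. Of the tanycyte and ependymal genes, Cd59a was the most widely held (18 cells), and 2, Rax and Gpr50, had no count in any cell. At least 1 tanycyte or ependymal gene was held by 39 of 76 cells, and at least 3 by 5 cells. By summed CPM over all cells the members were thus nearer to the other astrocyte and microglia genes than to either neuron list. For microglia the lead over the neuron lists was small without Apoe. The values were then 0.26 for microglia, 0.28 for tanycyte and ependymal, 0.22 for neuron and 0.21 for Pomc-neuron genes. The order of the lists differed by label. In the 34 Ghost cells the correlation was 0.48 for other astrocyte, 0.09 for microglia, 0.21 for neuron and 0.33 for Pomc-neuron genes. Without Apoe it was 0.20, -0.31, 0.42 and 0.59 in that order, and this order came from HFD. In Ghost on HFD the values without Apoe were -0.06 for other astrocyte, 0.53 for neuron and 0.61 for Pomc-neuron genes, and in Ghost on CD they were 0.66, 0.35 and 0.40.

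Genes whose log2(CPM + 1) followed that of the summed members were ranked by Pearson correlation over the 76 cells. Of 9063 genes the highest 10 were Cst3 (0.68), Rps14 (0.66), Gapdh (0.58), Uchl1 (0.56), Ftl1 (0.55), Gas5 (0.55), Gm28437 (0.54), Rps21 (0.54), Rpl7 (0.54) and Cox6c (0.53), against a median of 0.09 over all. Of these, Cst3 is in the list of other astrocyte genes and Uchl1 in that of neuron markers. By Spearman correlation the 10 genes included Dbi, Sparc and the microglia gene Tyrobp, and with log2(CPM + 10) they included Sparc and Ctsb. Both of these rankings also held the mitochondrial genes mt-Nd5, mt-Nd6 and mt-Cytb. The median correlation was 0.24 over 24 other astrocyte genes, 0.32 over 10 microglia genes, 0.13 over 5 genes of Pomc neurons and 0.09 over 10 neuron genes, against 0.09 over all genes.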

How the data were processed

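The authors deposited a table of raw counts, in the unit count per gene and cell. They also deposited a signal table of normalized counts, in which the authors had divided each cell's counts by 1 size factor. The submitters' processing notes list cutadapt 2.10, STAR 2.7.5a and DESeq2 and the builds GRCm38 and mm10, and do not state the counting program. The raw counts were used here for all main values, and the normalized counts as an alternative. The members and all gene lists were chosen with earlier results of these data known. Of 56980 Ensembl IDs, 52073 matched GENCODE M21, which gave symbols, positions and exon lengths. CPM is the count over the cell's total times 1000000. A member's group level is its mean CPM over cells, and a ratio was called at 2-fold for genes that reached 5 counts in 3 or more cells. Thinning drew 40000 counts per cell without replacement with seed 1. The genes named are the 9 members and the 10 genes most like their sum among genes counted in at least 10 cells. Lists of other astrocyte, tanycyte and ependymal, oligodendrocyte, precursor, microglia, vascular, neuron and Pomc-neuron genes were related to the members by Spearman correlation over cells, in place of a planned split of cells by number of members. The alternatives were other count thresholds, thinning, a quality filter (1000 or more genes counted, mitochondrial share up to 20%), deposited normalized counts, CPM after removal of the 7 genes that all cells held, pooled CPM, leaving out each cell, runs of cell numbers, other low-count filters and other correlation measures. Chosen after seeing the data were a filter on 3 neuron markers, sums without Apoe or without Aldoc, and leaving out each cell within runs. The scripts passed a self-test on made-up counts. Versions were Python 3.11.15, numpy 2.4.6, pandas 2.3.3, scipy 1.17.1 and matplotlib 3.10.9.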

Additional observations from a re-analysis of the deposited data

How the results depend on the processing

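The share of cells that held each member lay within the main 95% interval in 161 of 180 settings, and the exceptions came with at least 10 counts, with thinning and, for Aqp4 in Pomc+ on CD, with at least 3 counts. The share with at least 3 members lay within it in 20 of 28. In Pomc+ on CD it was 57.1% when thinned and 52.2% with at least 10 counts, and 52.2% held at least 5 members. In Ghost on CD it was 33.3% with at least 10 counts, and 20% held at least 5 members. In Ghost on HFD it was 31.6% with at least 10 counts, while 84.2% held at least 2 and 36.8% at least 5 members. Stricter thresholds count fewer cells by construction.

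The summed member level was lower in Ghost on HFD under every setting but 1, a ratio of 1.11 in cells 637 to 657 without cell 650. The log2 ratio there was -1.10, and it was -0.52 with deposited normalized counts, -2.05 without Apoe, -0.40 in cells 637 to 657 and -3.00 in cells 713 to 720. On CD it was -1.17, and it was -1.77 with normalized counts, -0.32 pooled, 0.83 in cells 630 to 636, 0.64 in cells 658 to 669, -2.42 in cells 684 to 692 and -2.59 in cells 699 to 712. The 2 reversals rested on 1 Ghost cell each, since the ratio was 0.736 without cell 636 in the first run and 0.943 without cell 664 in the next, an alternative chosen after seeing the data. Between diets the log2 ratio in Pomc+ was 0.36, and 1.10 pooled. In Ghost it was 0.42, and it was 1.37 with normalized counts and -0.86 without Apoe. The cause was not tested.

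Scaling moved all genes as well. The median log2 ratio over all genes for Ghost to Pomc+ on CD was -0.74 with normalized counts and -0.55 pooled, against -0.06 with CPM, and on HFD it was -0.51 and 0.01 against -0.23. For HFD to CD it was 0.07 and -0.27 against 0.12 in Pomc+, and 0.25 and 0.23 against -0.07 in Ghost. Without the genes counted in every cell it was -0.11 for Ghost to Pomc+ on HFD.

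The members' median log2 ratio stayed below -1 for Ghost to Pomc+ on both diets under every setting. On CD it was -1.38 by mean CPM and -1.03 pooled, while its gap from the median of all genes was -1.32 and -0.48. For HFD to CD in Pomc+ it was 0.27, it was 1.17 pooled, -0.107 without the genes counted in every cell and 0.037 with the neuron-marker filter, and it ran from 0.074 to 1.05 with each cell left out. In Ghost it was -0.60, it was -0.017 with normalized counts and 0.71 pooled, and it ran from -1.20 to 0.58 with each cell left out. The cause was not tested.

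With the neuron-marker filter, 1 member was 2-fold higher in Ghost on HFD and 1 was 2-fold lower on HFD in Pomc+, against 0 each. Pooled, 5 members were higher on HFD in Pomc+ against 3. In Ghost 1 member was lower on HFD with normalized counts and 0 pooled, against 4. The percentages of all genes past 2-fold lay between 18.3% and 31.8% under both other low-count filters.

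Of 252 log2 ratios of single members, 157 stayed within 1.5-fold of the main value, and 9 that were past 2-fold changed side. Ratios short of 2-fold also changed side, such as Aqp4 and Agt for Ghost to Pomc+ on HFD with single cells left out, and Slc1a2 (-1.03) and Glul (-1.04) on CD when pooled. For Ghost to Pomc+ on CD, Gja1 was 0.12 without the genes counted in every cell, 0.94 pooled and -1.50 to 1.68 with each cell left out, Aqp4 was -1.44 to 1.74 with each cell left out, and Aldoc was 0.11 pooled. For HFD to CD, Aqp4 in Pomc+ was -0.95 to 5.18 and Gfap in Ghost was -2.52 to 0.58 with each cell left out. In Ghost, pooled, Slc1a2 was 0.71 and Glul 0.90. The cause was not tested.

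Among the 10 genes most like the summed members, 3 were shared with the Spearman ranking and 5 with log2(CPM + 10). Depth limits low levels most, since 3 counts make 739 CPM in the shallowest cell.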

Other observations

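No pair of the 76 cells had identical counts. The 7 genes counted in every cell were Rps27, Lars2, Gm15564, mt-Rnr2 and 3 IDs without a symbol, and the 3 IDs took a mean of 37.4% of a cell's counts. The 6 cells without any member had totals between 4057 and 229084 counts, and 4 of them held at least 3 of the 10 neuron markers.

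Of the genes that overlap members, Teddm2, antisense to Glul with shared exon sequence, had 7 counts, and the libraries do not keep the strand. No annotated pseudogene carries a member's name.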
